A study of Sus scrofa with 15 samples.

Results

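The genes described are 37 that carry cholesterol synthesis, its control, and the uptake, storage and efflux of cholesterol. They were chosen by symbol, and 35 of the 30476 genes in the deposited table matched. LSS and EBP were not analysed here. The genes were taken in 4 roles: 18 synthesis enzymes (16 analysed), 6 regulators of synthesis, 8 genes of uptake, transport inside the cell and ester storage, and 5 genes of efflux. All but STARD3, an exchange protein of late endosomes with 1 to 9 reads per library, passed the filter on low counts, which left 34 to test.

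RNA was sequenced from testes of 15 male piglets, Dutch Landrace Duroc by the series' labels, at postnatal day 21, with 1 library per piglet and 3 per diet. From postnatal day 2, Sow piglets drank sow milk from bowls, Milk piglets a formula based on cow's milk, and Soy piglets one based on soy. The M + E2 and M + G groups drank the formula of the Milk group, with 17β-estradiol (E2) added for M + E2 and genistein, an isoflavone of soy, at 84 mg/L of diet for M + G. All piglets suckled before that, and their sows received a diet free of soy. The piglets in a diet group came from different litters, and E2 served as the estrogenic positive control. In Sow and in Soy, 1 library carries no number in its column name and is called unnumbered. Sow 2 was left out of the tests, which leaves 2 libraries for Sow and 3 for each other group. The study excluded it for its low correlation values. Sow 2 also stood apart in another measure, its CPM (read counts scaled to a common library size) on 53 ribosomal protein genes. This was 111900 CPM against 59820 to 68240 in the remaining Sow libraries. The values of Sow 2 are given in brackets.

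Cholesterol is built from acetyl units through mevalonate and squalene, and the SREBP transcription factors switch on most enzymes of this route when the sterol content of the endoplasmic reticulum membrane is low. Cells also take up cholesterol from lipoproteins, store it as esters and pass the excess to lipoproteins under control of the LXR receptors. In the testis, Leydig cells use cholesterol to make androgens, and growing germ and Sertoli cells use it for membranes. The tissue was sequenced whole, so fewer cells of a type and less RNA per cell cannot be told apart.

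In M + E2, 4 of the 34 tested genes fell relative to Sow, and all were among the 16 synthesis enzymes tested: MSMO1, IDI1, HSD17B7 and CYP51A1, by 2.26- to 2.97-fold. A call needed a 2-fold change and an adjusted p (Benjamini-Hochberg, over all genes) of at most 0.05 in edgeR's quasi-likelihood test. Of the 15634 genes tested, 3.56% were called lower in this comparison and 1.44% higher. No gene of the regulation, uptake or efflux roles was called in it, but SOAT1, of cholesterol storage, was called lower in 10 and INSIG2, a regulator, in 9 of the 23 settings run for this comparison. At an unadjusted p below 0.05 there were 14 of the 34 genes, against 33.8% of all genes. M + E2 differs from Sow in its formula as well as in E2, and these cannot be told apart in this comparison. Levels are CPM, scaled by edgeR's TMM factors, which allow a gene to be compared between libraries but not with another gene.

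**Figure D1:**
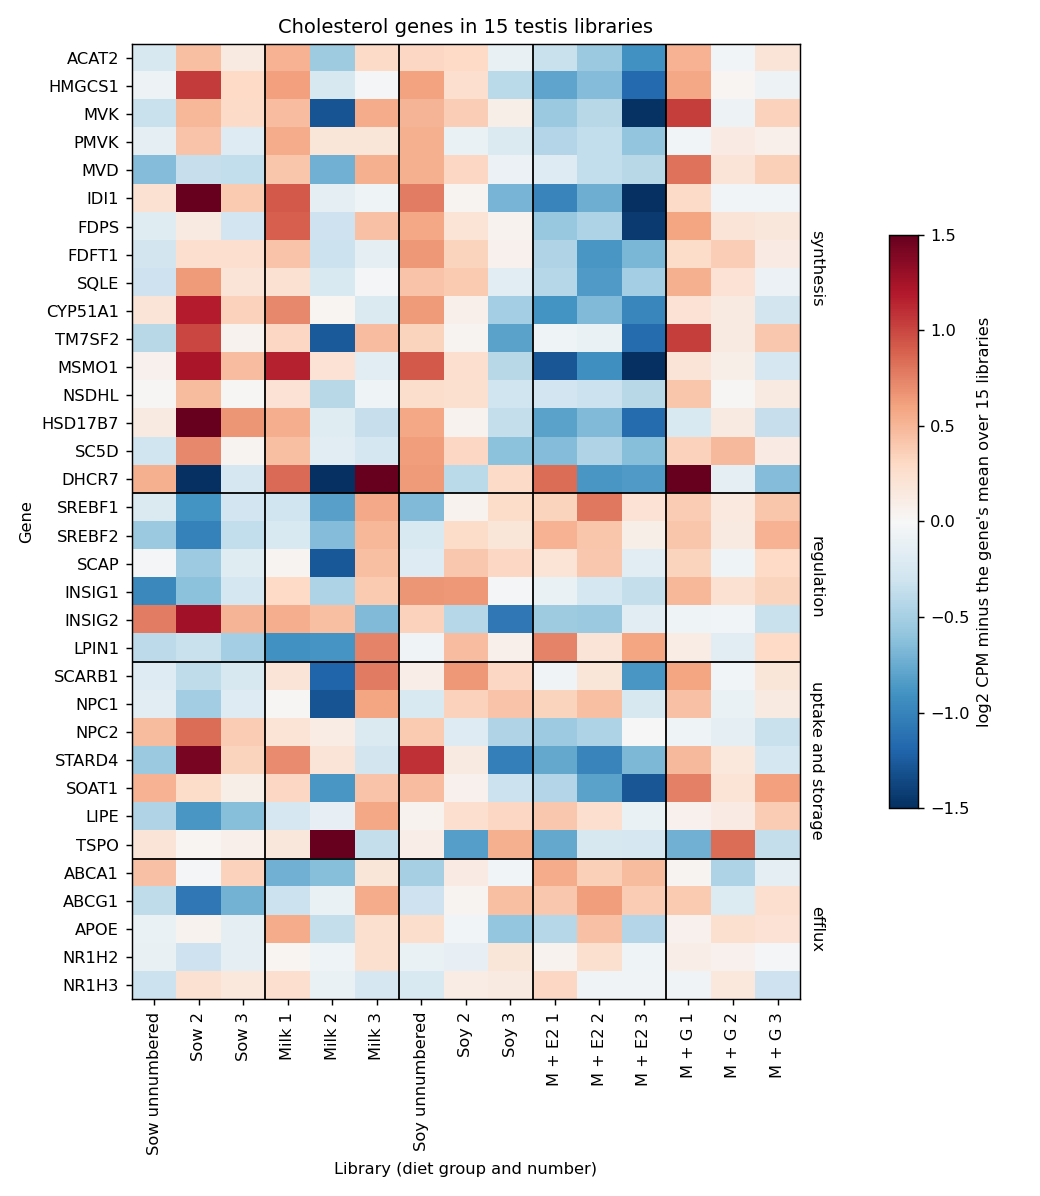
Level of each of the 34 tested genes (rows, by role) in the 15 libraries (columns, by diet), as log2 CPM minus the gene's mean over the libraries; red is above the mean and blue below, and the color scale ends at 1.5. The 3 M + E2 columns are blue in most synthesis rows, and Sow 2 is red in many of them.

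MSMO1, a demethylase of sterol intermediates (ENSSSCG00000008857, chr8:43726834-43745784 in Sscrofa11.1), had 232, 298 and 192 CPM in M + E2. In Sow it had 590 and 777 CPM [Sow 2: 1317], and in Milk 1250, 654 and 498. In Soy it had 1061, 672 and 420 CPM, and in M + G 642, 599 and 473. Each M + E2 library was below every library of the other diets. The change relative to Sow was -1.57 on the log2 scale (SE 0.41, adjusted p = 0.0428), 2.97-fold lower.

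IDI1, which isomerizes the building block of all isoprenoids (ENSSSCG00000029066), had 322, 385 and 221 CPM in M + E2, while Sow had 753 and 839 [1967]. It had 1210, 578 and 614 CPM in Milk, 1089, 657 and 394 in Soy, and 780, 622 and 621 in M + G. The M + E2 values again were below all others, with Soy 3 nearest to them. Means were 309 ± 82.6 CPM in M + E2 (SD, n = 3) and 796 ± 61.2 in Sow (SD, n = 2), a log2 change of -1.43 (SE 0.41, adjusted p = 0.0489).

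CYP51A1, the lanosterol demethylase (ENSSSCG00000015311, chr9:72057506-72079587), had 144, 169 and 135 CPM in M + E2 and 306 and 340 in Sow [605]. It had 441, 272 and 230 CPM in Milk, 417, 281 and 187 in Soy, and 312, 293 and 220 in M + G. The M + E2 libraries did not overlap with any group, and the log2 change relative to Sow was -1.18 (SE 0.32, adjusted p = 0.0465).

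HSD17B7, a ketosteroid reductase that acts on sterol intermediates and can also convert estrone to E2 (ENSSSCG00000006337, chr4:87720747-87743037), had 14.7, 16.2 and 11.5 CPM in M + E2. It had 28.4 and 40.7 CPM in Sow [102], 37.7, 22.7 and 20.3 in Milk, 38.5, 26.6 and 20.1 in Soy, and 21.9, 28.3 and 20.2 in M + G. The M + E2 libraries were lowest, and the highest M + G library (28.3) was just below the lower Sow library (28.4), so those 2 groups did not overlap either. The log2 change was -1.35 in M + E2 (SE 0.32, adjusted p = 0.0381) and -0.59 in M + G (adjusted p = 0.264).

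FDFT1, which makes squalene (ENSSSCG00000026044, chr14:14976259-15010701), had the smallest p of the synthesis enzymes after MSMO1 in a test of any difference among the 5 diets. It had 192, 143 and 164 CPM in M + E2, 216 and 313 in Sow [312], and 354, 209 and 239 in Milk. It had 413, 331 and 274 CPM in Soy and 319, 338 and 286 in M + G. The M + E2 libraries were lowest, but the log2 change relative to Sow of -0.73 did not pass (adjusted p = 0.0791).

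**Figure D2:**
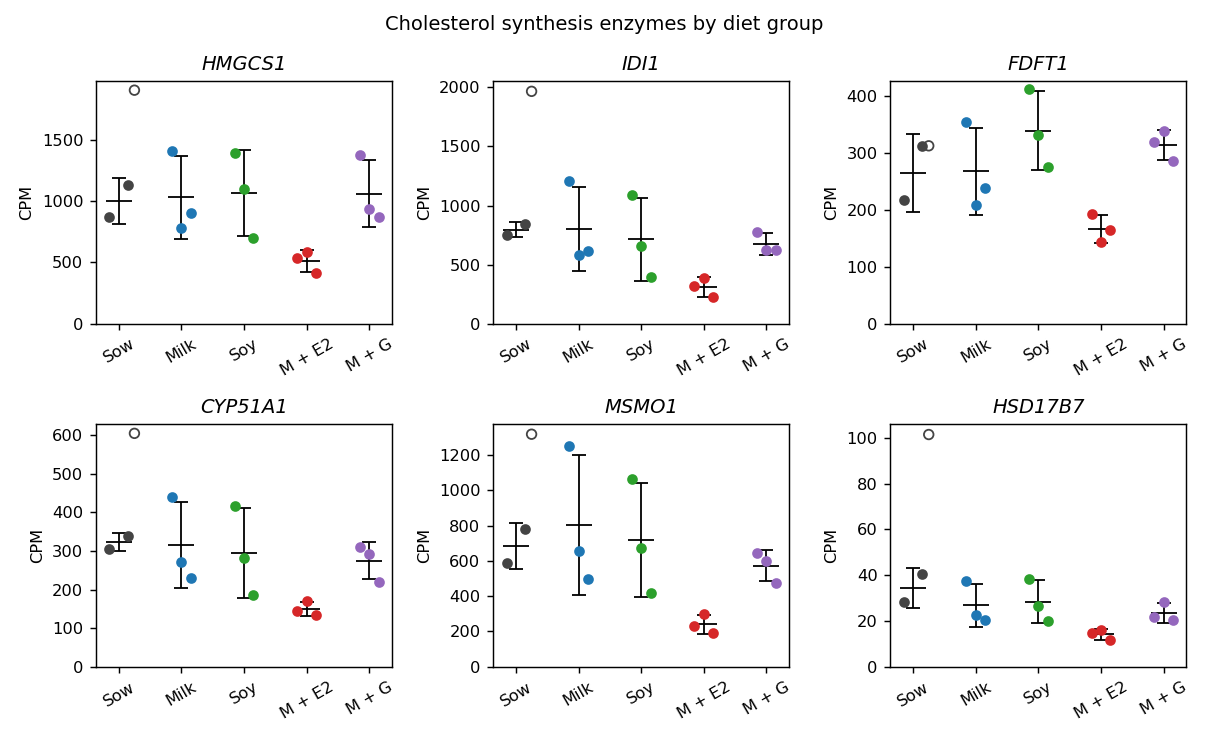
CPM (vertical axis, from 0) of 6 synthesis enzymes by diet group (horizontal axis); points are libraries, the open point is Sow 2, and bars are the mean ± SD without Sow 2. In each panel the 3 M + E2 points are below all points of the other diets.

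Over the synthesis enzymes as a whole, 15 of the 16 had a fold change below 0 in M + E2 relative to Sow, against 49.5% of all genes. MVD, which makes isopentenyl diphosphate, was the exception at 0.12. The median log2 change of the enzymes was -0.61, and that of all genes was 0.0095. The 8 enzymes up to FDFT1 had a median of -0.67 and the 8 from SQLE, the squalene epoxidase, onwards one of -0.57. In 13 of the 16 enzymes all M + E2 libraries were below both Sow libraries, which 28.6% of all genes did. In 9 enzymes every M + E2 library was below all 11 other libraries of the fit, which 2.31% of all genes did. These were HMGCS1, PMVK, IDI1, FDPS, FDFT1, SQLE, CYP51A1, MSMO1 and HSD17B7, and no gene of the other roles had this order.

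HMGCS1, which makes the precursor of mevalonate, had 531, 584 and 410 CPM in M + E2, 869 and 1132 in Sow [1903], and 695 to 1411 in the remaining libraries. Its log2 change of -1.04 relative to Sow did not pass (adjusted p = 0.064). DHCR7, the reductase of 7-dehydrocholesterol, varied most between libraries and least between diets of the 34 genes. It ranged from 18.6 to 245 CPM over the 15 libraries, and its 5 diet groups accounted for 6.38% of its sum of squares, where the median synthesis enzyme had 63.0% and the median gene 42.2%.

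The 4 calls depended on the libraries in the fit, and the calls over all genes moved with them. With Sow 2 put back 9 of the 34 genes were called, and 18.1% of all genes. Without Milk 3, Soy unnumbered or Soy 3 the number was 7 (9.81%, 8.49% and 7.77% of all genes): the 4 genes with HMGCS1, INSIG2 and SOAT1, all lower. It was 1 without M + G 2 (1.94%). It was 0 without Soy 2 (0.0642%), M + G 1 (0.288%), M + G 3 (0.244%) or any 1 of the M + E2 libraries (6 genes of all tested in each case). It was 12 without Sow unnumbered (18.4%) and 10 without Sow 3 (21.3%), each with Sow 2 put back.

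Markers of testis cell types were measured beside these enzymes. The 6 analysed of 8 listed Leydig cell markers summed to 13540 to 14370 CPM in M + E2, where Sow had 19940 to 20430, and the lowest library of all was in Milk, at 10740. Of these 6 markers, 1 was called lower (STAR), against 3.56% of all genes, and 3 did not overlap with Sow on the lower side (28.6% of all genes). NR5A1 was above both Sow libraries in all M + E2 libraries, as were 33.6% of all genes (log2 change 0.30, adjusted p = 0.55). Sertoli cell markers (8 of 8) were at 3336 to 3439 CPM in M + E2 and 2167 to 2325 in Sow, and germ cell markers (5 of 6) at 268 to 313 and 191 to 206, with none called. Most of the germ cell sum was KIT, at 187 to 240 CPM in M + E2 and 133 and 137 in Sow. Of the 5 germ cell markers, 3 had a fold change above 0 and 2 below. UCHL1 had 9.25, 10.9 and 9.37 CPM in M + E2, below both Sow libraries (12.2 and 15.0), as were 28.6% of all genes. Endothelial markers (4 of 4) were at 537 to 712 CPM in M + E2 and 272 to 356 in Sow, and macrophage markers (5 of 5) at 141 to 151 and 106 to 113, with none called. Erythroid markers (4 of 5) overlapped in their sum, at 240 to 598 and 497 to 532 CPM, and 2 had a fold change above 0 and 2 below. SLC4A1 was called higher (log2 change 3.51, adjusted p = 0.0469), as were 1.44% of all genes. It had only 2 and 1 reads in the Sow libraries and 4, 11 and 48 in M + E2. Adipocyte markers (5 of 5) summed to 3.76 to 6.07 CPM in M + E2 and 7.07 to 7.40 in Sow. Ribosomal protein genes summed to 26010 to 40510 CPM in M + E2 and 59820 to 68240 in Sow. M + G overlapped with M + E2 in ribosomal protein genes (28330 to 41690 CPM), endothelial markers (563 to 663) and Sertoli cell markers (1797 to 3379). It did not overlap with M + E2 in Leydig cell (16770 to 20260 CPM) and germ cell markers (144 to 217). No marker was at 0 in every library of a group, and the part of these differences in the result was not tested.

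M + E2 was also set beside Milk, the same formula without E2. All 16 synthesis enzymes had a fold change below 0 (52.4% of all genes did), with a median of -0.83 (-0.029 for all genes), from -1.77 in MSMO1 to -0.31 in NSDHL, a sterol dehydrogenase. None was called, nor was any of the 15634 genes (0.00%), and the lowest adjusted p of the enzymes was 0.175. At an unadjusted p below 0.05 there were 11 of the 16 enzymes, against 17.7% of all genes, and 10 did not overlap with Milk on the lower side (7.77% of all genes). FDPS, which makes farnesyl diphosphate, had 12.1, 13.0 and 6.60 CPM in M + E2 and 33.7, 14.5 and 24.5 in Milk, a log2 change of -1.23 (adjusted p = 0.186). Without Milk 3, 8 of the 34 genes and 8.04% of all genes were called: ABCA1, CYP51A1, FDPS, HMGCS1, HSD17B7, IDI1, LPIN1 and MSMO1.

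Soy relative to M + E2 gave no call among the 34 genes, where 0.147% of all genes were called. All 16 synthesis enzymes were higher in Soy by their fold change, with a median of 0.96 (0.030 for all genes), 12 without overlap (7.78% of all genes) and 14 at an unadjusted p below 0.05 (13.0% of all genes). The adjusted p was lowest for FDFT1, at 0.102 with a log2 change of 1.09 (SE 0.24), and MSMO1 had 1.64 (adjusted p = 0.119). This comparison shares the M + E2 libraries with those above.

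The synthesis enzymes of the remaining formula groups had medians closer to 0. Relative to Sow, 12 of the 16 had a fold change above 0 in M + G, 13 in Soy and 11 in Milk. Their median log2 change relative to Sow was 0.23 in M + G, 0.15 in Soy and 0.10 in Milk (0.0198, 0.0204 and 0.002 for all genes). No gene of any role was called (0.0576%, 0.0128% and 0.0192% of all genes were). The unadjusted p was below 0.05 for 8, 4 and 3 of the 34 genes, against 23.6%, 15.0% and 12.1% of all genes. Of the 34 genes, M + G had 16 above and 4 below both Sow libraries in all of its own (27.5% and 26.4% of all genes), Soy 8 and 2 (18.4% and 18.9%), and Milk 4 and 2 (15.7% and 15.3%). M + E2 had 6 above and 18 below (33.6% and 28.6%). M + G and Soy relative to Milk gave 0 of 34 genes at an unadjusted p below 0.05 (2.60% and 2.44% of all genes). All comparisons with Sow share its 2 libraries.

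**Figure D3:**
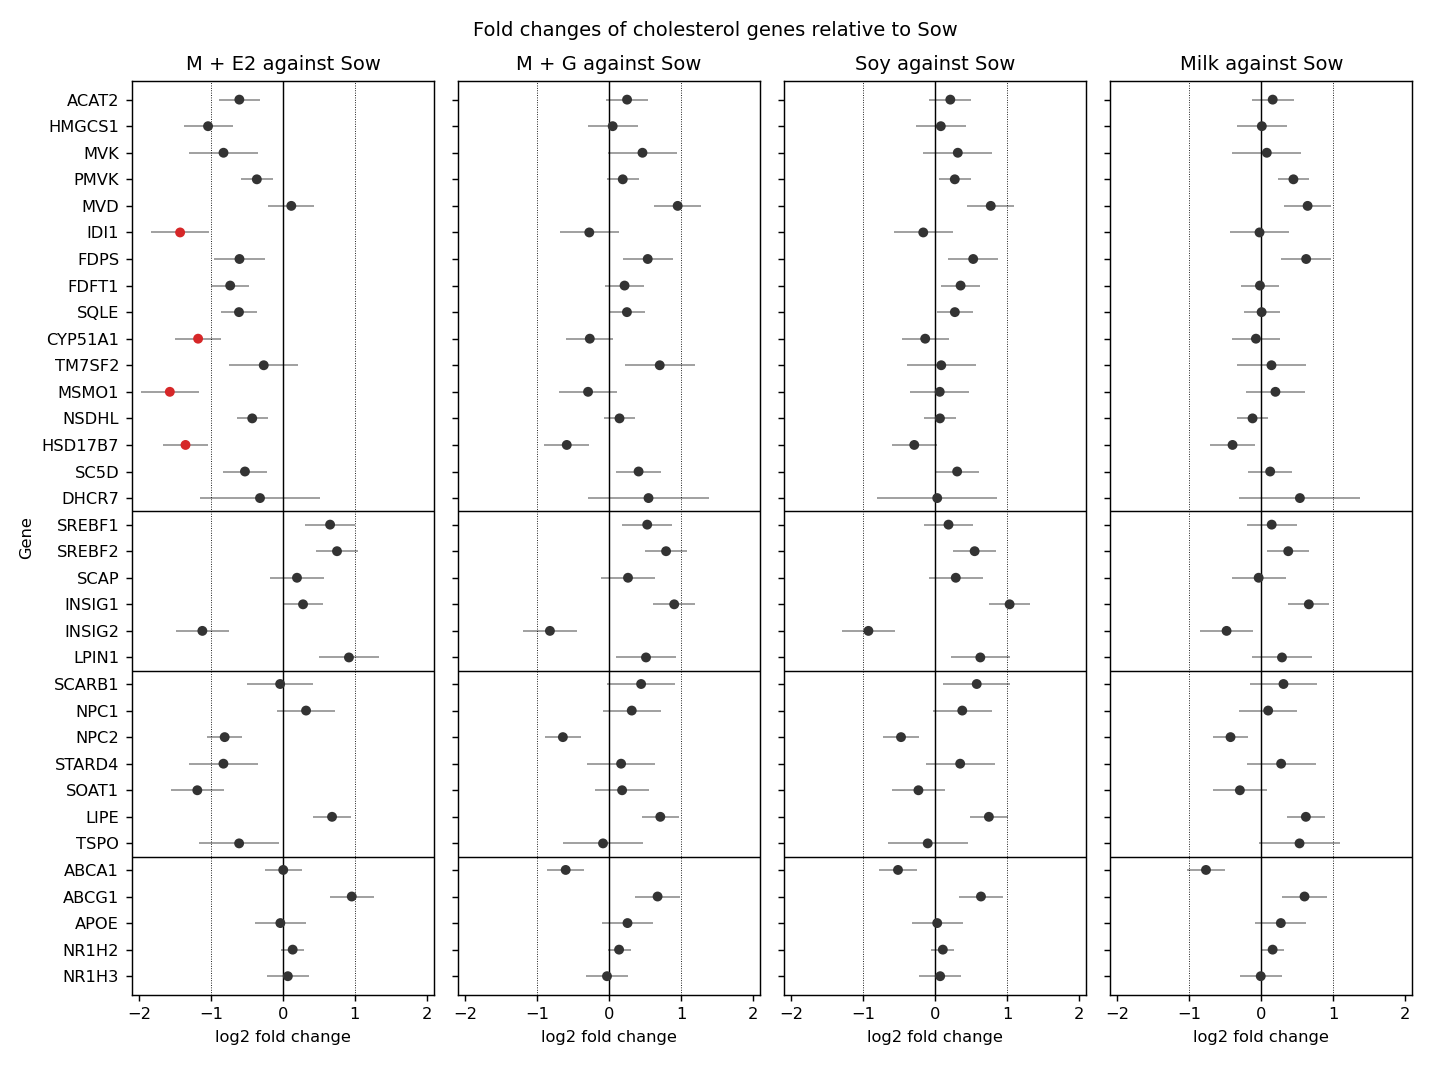
Log2 fold change relative to Sow (horizontal axis; dotted lines mark 2-fold) of the 34 tested genes (rows, by role) in 4 diet groups; bars are the SE from edgeR and red points are called. The 4 called genes are MSMO1, IDI1, HSD17B7 and CYP51A1 in M + E2. The synthesis rows of M + G, Soy and Milk lie on both sides of 0, with more above it than below.

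The regulators of synthesis had no call in the fit of 5 groups over the 14 libraries other than Sow 2. INSIG1, which holds the SREBP precursor in the endoplasmic reticulum (ENSSSCG00000016420, chr18:2885494-2898758), had 42.5 and 69.4 CPM in Sow [54.3]. It had 102, 60.4 and 109 CPM in Milk, 132, 131 and 82.2 in Soy, 78.2, 69.7 and 65.0 in M + E2, and 118, 97.9 and 105 in M + G. All Soy and M + G libraries were above both Sow libraries, and Milk and M + E2 overlapped with Sow. The log2 change relative to Sow was 1.03 in Soy (adjusted p = 0.32), 0.91 in M + G (adjusted p = 0.136) and 0.28 in M + E2 (adjusted p = 0.512), and none passed.

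INSIG2, its paralog (ENSSSCG00000036229, chr15:23676684-23699591), went the opposite way by its values. It had 38.5 and 32.2 CPM in Sow [54.3], 33.0, 30.9 and 14.3 in Milk, and 28.8, 16.8 and 10.7 in Soy. It had 15.6, 15.3 and 20.1 CPM in M + E2 and 21.6, 22.1 and 17.9 in M + G. All M + E2, M + G and Soy libraries were below both Sow libraries, with log2 changes of -1.12, -0.82 and -0.93 (adjusted p = 0.0657, 0.202 and 0.322). In M + E2 it passed by DESeq2's Wald test (adjusted p = 0.0327) and edgeR's exact test (adjusted p = 6.27e-07). These tests called 8.50% and 12.6% of all genes, and the exact test took its spread from the Sow and M + E2 libraries alone. The annotation lists a pseudogene of the same symbol, so 36-base reads could be split between copies.

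SREBF2, the SREBP that drives most synthesis enzymes, had 344, 320 and 254 CPM in M + E2 and 162 and 185 in Sow [118], a log2 change of 0.75 (adjusted p = 0.1). M + G had 319, 262 and 343 CPM (log2 change 0.79, adjusted p = 0.152), and neither group overlapped with Sow. SREBF1 had a log2 change of 0.65 in M + E2 (adjusted p = 0.202), and LPIN1, a phosphatidate phosphatase, one of 0.92 (adjusted p = 0.14). SCAP, the sterol sensor that carries SREBP to the Golgi, had 0.20 (adjusted p = 0.747). The median of the 6 regulators in M + E2 was 0.47 and that of the 16 enzymes -0.61.

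Uptake, transport and storage genes had no call in that fit of 14 libraries, though some passed in other settings, with or without Sow 2. SOAT1, which esterifies cholesterol for storage (ENSSSCG00000021464, chr9:121045211-121112393), had 200, 155 and 111 CPM in M + E2 and 388 and 287 in Sow [328]. It had 336, 148 and 365 CPM in Milk, 372, 282 and 216 in Soy, and 456, 311 and 414 in M + G. M + E2 was below every library but Milk 2, and the log2 change relative to Sow was -1.19 (SE 0.37, adjusted p = 0.0571), which did not pass. It passed by DESeq2's Wald test (adjusted p = 0.0171), by edgeR's exact test (adjusted p = 6.96e-06) and in a fit of both groups alone (adjusted p = 0.00186). In turn, these settings called 8.50%, 12.6% and 12.3% of all genes. STARD4 passed in 3 and NPC2 in 1 of the 23 settings, each with Sow 2 put back and 18.1% to 21.3% of all genes called.

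NPC2, which carries cholesterol out of lysosomes (ENSSSCG00000002366, chr7:97730532-97740087), had 237 and 222 CPM in Sow [306]. It had 116, 123 and 172 CPM in M + E2, 163, 154 and 135 in M + G, 224, 150 and 125 in Soy, and 196, 184 and 147 in Milk. All libraries of M + E2, M + G and Milk were below both Sow libraries, with log2 changes of -0.81, -0.64 and -0.43 (adjusted p = 0.0556, 0.157 and 0.472), and Soy unnumbered overlapped with Sow. NPC1, its partner in the lysosomal membrane, had 0.32 in M + E2 (adjusted p = 0.605).

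STARD4, which moves cholesterol between membranes, had 18.6, 16.0 and 19.8 CPM in M + E2 and 21.5 and 40.1 in Sow [85.6] (log2 change -0.83, adjusted p = 0.234). LIPE, the lipase that frees cholesterol from its esters, had log2 changes of 0.62 to 0.75 in the 4 formula groups relative to Sow, with no overlap with Sow in any of them and no call. SCARB1, the receptor for high-density lipoprotein, had 754 to 2980 CPM within Milk alone and -0.04 in M + E2 relative to Sow (adjusted p = 0.962). TSPO, a protein of the outer mitochondrial membrane, had 48.9 CPM in Milk 2 and 29.1 in M + G 2, its highest values.

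Efflux genes had no call in that fit of 14 libraries, and ABCG1 passed in 3 of the 23 settings for M + E2 relative to Sow, each with Sow 2 put back. ABCA1, the transporter that loads lipid onto apolipoprotein A-I (ENSSSCG00000005423, chr1:246144277-246278492), had 55.3 and 51.9 CPM in Sow [40.0] and 60.0, 52.4 and 56.5 in M + E2. It had 24.7, 26.0 and 46.5 CPM in Milk, 28.9, 44.3 and 39.8 in Soy, and 42.0, 29.6 and 37.0 in M + G. The libraries of Milk, Soy and M + G were all below both Sow libraries and all M + E2 libraries. Log2 changes relative to Sow were -0.77, -0.52 and -0.60 in these groups (adjusted p = 0.372, 0.343 and 0.187) and 0.004 in M + E2 (adjusted p = 0.993), while M + E2 relative to Milk was 0.77 (adjusted p = 0.196).

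ABCG1, the transporter to larger lipoprotein particles (ENSSSCG00000027745, chr13:205561897-205628428), had 7.40 and 5.87 CPM in Sow [4.53] and 12.9, 14.9 and 12.7 in M + E2. It had 7.69, 9.05 and 14.3 CPM in Milk, 7.76, 9.98 and 13.3 in Soy, and 12.7, 8.37 and 11.6 in M + G. All 4 formula groups were above both Sow libraries, and the log2 change was largest in M + E2, at 0.96 (SE 0.31, adjusted p = 0.0623). APOE, an apolipoprotein, ranged from 1379 to 3042 CPM, and the LXR receptors NR1H2 and NR1H3 varied 1.47- and 1.56-fold over the 15 libraries.

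**Figure D4:**
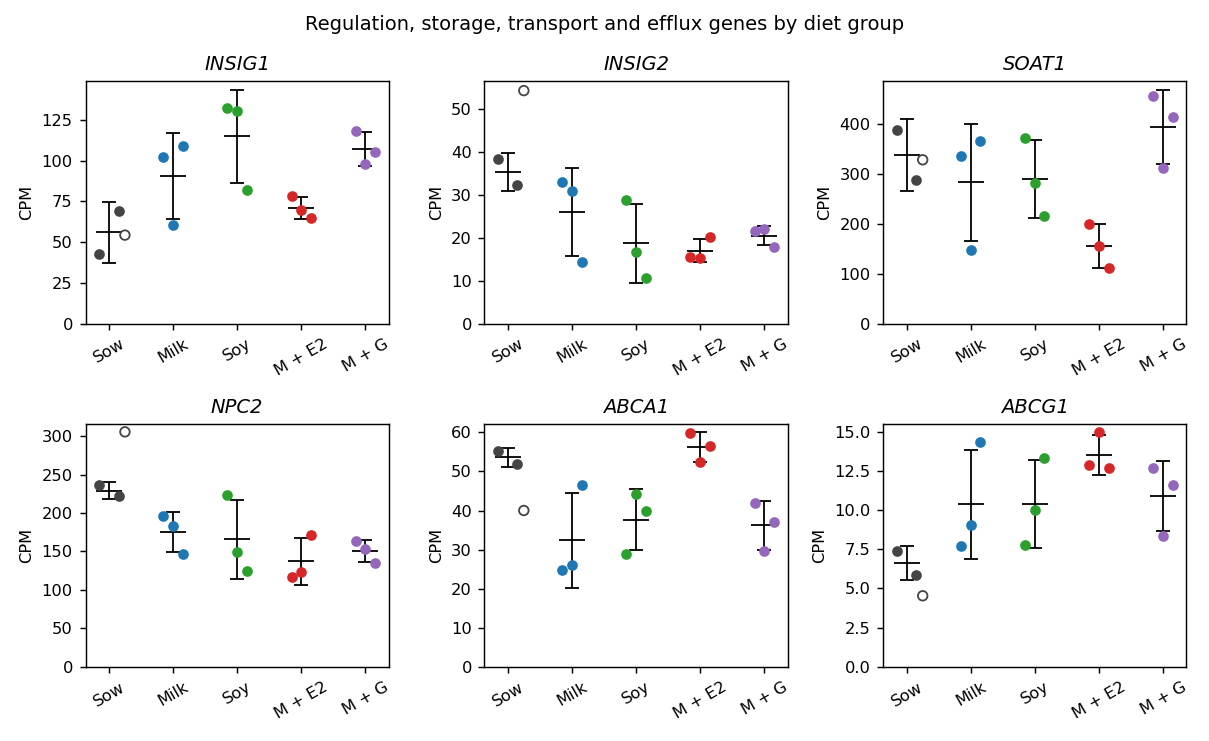
CPM (vertical axis, from 0) of 6 genes of regulation, storage, transport and efflux by diet group (horizontal axis); points are libraries, the open point is Sow 2, and bars are the mean ± SD without Sow 2. In ABCA1 the filled Sow points and the M + E2 points are above those of Milk, Soy and M + G. None of the 6 genes was called in the fit of 5 groups over the 14 libraries other than Sow 2.

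The test over the 5 diets passed none of the 34 genes (0.0640% of all genes passed), with adjusted p from 0.202 to 0.994. At an unadjusted p below 0.05 there were 15 of the 34, against 18.1% of all genes. Over all 15 libraries, with Sow 2, the synthesis enzymes also had the largest median ratio of highest to lowest library of the roles, at 4.56. Regulators had 3.21, uptake and storage genes 3.95, efflux genes 2.21 and all genes 2.81. Sow 2 was the highest library in HMGCS1, IDI1, SQLE, CYP51A1, MSMO1, NSDHL, HSD17B7 and SC5D, and the lowest in DHCR7. The ratios were not taken without it.

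Around these genes, 32 further genes of cholesterol handling were listed, of which 27 were tested. In M + E2 relative to Sow 4 of the 27 were called lower and none higher, against 3.56% and 1.44% of all genes. These were STAR, which brings cholesterol into mitochondria for steroid synthesis (log2 change -1.53, adjusted p = 0.0449), and SCP2, a sterol carrier (-1.21, adjusted p = 0.0378). The others were ACAT1, a thiolase of mitochondria (-1.12, adjusted p = 0.0381), and LIPA, the lysosomal lipase that frees lipoprotein cholesterol (-1.09, adjusted p = 0.0427). Of the 27, 19 had a fold change below 0 (49.5% of all genes did), and the median of the 27 was -0.09. Of 10 listed steroidogenic genes 9 were tested, all with a fold change below 0 (49.5% of all genes) and a median of -1.07. STAR and FDX1, the electron donor of mitochondrial steroid enzymes (-1.33, adjusted p = 0.0414), were called lower (3.56% of all genes). STAR is also in the list above and among the Leydig cell markers. Of 12 fatty acid synthesis genes, which SREBF1 drives, none was called, and their median was 0.13. None of these lists had a call in any other comparison.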

How the data were processed

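Testis RNA of 15 piglets was sequenced as 36-base single-end reads. The authors trimmed the reads and mapped them with CLC Genomics Workbench 20.01, first to a curated porcine gene library and then, for reads left unmapped, to Ensembl's Sscrofa11.1, and deposited the counts of reads per gene without normalization. Which of both steps the deposited counts hold was not determined. Totals were 6097552 to 9488579 counts per library (median 8198038), and these cover counting error only.

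Column names gave each library's diet. For the Sow and Soy columns without a number, the sample number was not assigned. The number of columns left unused was 0. The tests used edgeR 4.0.16 (R 4.3.3): TMM factors, filterByExpr at a minimum count of 10 (15634 genes) and the quasi-likelihood F test in 1 fit of the 5 groups over 14 libraries, without Sow 2, as in the study's methods (which used edgeR's exact test). P-values were adjusted by Benjamini-Hochberg over all genes, and a call needed 0.05 or less and at least 2-fold. CPM is scaled over all 15 libraries, and log2 CPM has a prior count of 1. Values in every library are given for each called gene and for the 2 genes of each role with the smallest p over the 5 diets, and others are named with fewer values. The genes and lists were chosen with earlier results of these data known. Positions are from RefSeq's Sscrofa11.1 annotation, matched by symbol, and for CYP51A1 by a synonym. The scripts were tested on simulated data. Alternatives used DESeq2 1.42.0, edgeR's exact test, other filters and other libraries.

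Libraries of Milk and M + G with the same number deviated together from their group means (r = 0.228, 0.49 and 0.412). Those of Milk and M + E2 did not (r = -0.0622, -0.0903 and -0.321). Libraries of unlike number were not compared, and the sample titles do not link piglets across diets. These values therefore cannot show whether the numbers pair the groups. Promoter and protein sequences were not analysed here.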

Additional observations from a re-analysis of the deposited data

How the results depend on the processing

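The limits are 2 Sow libraries, 3 libraries in each other group and, for genes such as NR1H3 and STARD3, few reads. For M + E2 relative to Sow, the 4 calls (781 of all genes) became 9 with all 3 Sow libraries (2767 of all genes), 8 lower and ABCG1 higher. They became 7 in a fit of both groups alone (1846), 7 by DESeq2's Wald test (1329) and 7 by edgeR's exact test (1887). With 1 library of Milk, Soy, M + E2 or M + G left out, they became 0 to 7 (6 to 1533). With Sow 2 put back, they became 12 without Sow unnumbered (2891) and 10 without Sow 3 (3324). The 7 were the 4 genes with HMGCS1, INSIG2 and SOAT1 each time. The calls were 4 without a filter (3.89% of all genes) and 4 with at least 10 counts in every library (6.38%). They were 3 with DESeq2's size factors (4.56%), under which IDI1 missed the threshold (adjusted p = 0.051). With a library left out, the log2 change of the called genes stayed below 0, from -2.26 to -1.25 in IDI1, from -1.74 to -1.13 in CYP51A1, from -2.20 to -1.45 in MSMO1 and from -2.41 to -1.23 in HSD17B7. The lowest value of each gene came without Sow unnumbered and with Sow 2 put back. The cause of these changes was not tested. The M + G comparison with Sow, with 0 calls, gave 2 with all 3 Sow libraries (HSD17B7 and INSIG2, with 10.3% of all genes called). With Sow 2 put back it gave 2 without Sow unnumbered (8.32%) and 4 without Sow 3 (13.0%). It gave 0 with any library of another group left out. M + E2 relative to Milk, with 0 calls, gave 5 by the Wald test (0.780% of all genes) and 3 by the exact test (0.636%). It gave 8 without Milk 3 (8.04%) and 0 with any other library left out. Soy relative to M + E2, with 0 calls, gave 7 by the Wald test (0.915%) and 7 by the exact test (1.39%). The test over 5 diets, with 0 calls, gave 1 with all 3 Sow libraries (HSD17B7, with 7.62% of all genes passing). It gave 3 without Milk 3 (6.67%) and 0 with any other library left out. The remaining comparisons had 0 calls under every alternative run.

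With the replicate number as a block, in the 4 comparisons without Sow, the number of calls was 0 in each, as without it. Because the calls were already 0 without the block, this does not show whether the numbers pair libraries. No paired analysis was possible for comparisons with Sow because only 1 numbered Sow library is in the fit.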
